A study of Rattus norvegicus with 6 samples.

Results

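Integrin chains, laminin chains and the nidogens and heparan sulfate proteoglycans of basement membranes were followed by bulk RNA-seq in the pulmonary veins (PV) of rats with bilateral pulmonary vein banding (BPVB). The members were taken by symbol: genes whose symbol starts with Itga, Itgb, Lama, Lamb or Lamc and goes on with a digit or a single letter, together with Nid1, Nid2, Hspg2 and Agrn, with a mean FPKM above 0. This gave 44 of the 17833 genes listed, made up of 26 integrin chains, 11 laminin chains, 4 nidogens and proteoglycans, and 3 proteins named for binding an integrin β chain (Itgb1bp1, Itgb1bp2 and Itgb3bp), which are described apart. All rats were wild type SD (Sprague-Dawley) rats. In the BPVB group the PVs were constricted on postnatal day 1, and in the sham group the chest was opened on the same day without constriction. PV tissue of the right upper lobe was taken on postnatal day 21 from 3 BPVB and 3 sham rats, with 1 library per rat. The libraries are called BPVB 1 to 3 and sham 1 to 3, and numbers from different groups do not mark related rats.

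Integrins are receptors of an α and a β chain that span the cell membrane and tie the matrix, or a neighbouring cell, to the actin skeleton. Laminins are secreted trimers of an α, a β and a γ chain that assemble into the sheet of a basement membrane, where nidogens and the proteoglycans perlecan (Hspg2) and agrin (Agrn) link them to collagen IV and to the cell. In the wall of a vein, such membranes underlie the endothelium and wrap each muscle cell.

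The files gave 1 FPKM value (fragments counted on a gene, scaled to its length and to the library total) per gene and rat. Library totals recovered from those values were 23439506 to 29725808 fragments, with all 3 BPVB libraries deeper than all 3 sham libraries. Log2 fold changes compare BPVB with sham on the log2(FPKM + 0.5) scale, which understates the change of genes near or below 0.5 FPKM, so the plain ratio of mean FPKM is given as well. Adjusted p-values come from limma over the 15150 genes whose FPKM averaged 0.1 or more, and a gene is said to have risen or fallen where its adjusted p was under 0.05.

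As a family these genes changed in opposite directions, and mostly by small amounts. Of the 44 members, 43 passed the filter and 30 of the 43 changed (69.8%), beside 31.5% of all genes tested. There were 15 that rose and 15 that fell, where 17.2% of all genes tested rose and 14.3% fell. An adjusted p under 0.05 together with a log2 fold change beyond 1 in size was reached by 2 members, Itga8 and Itgb2, both of them rises, beside 3.27% of all genes tested (2.24% up and 1.03% down). The 3 BPVB and 3 sham values did not overlap for 35 of the 43 members, 19 higher and 16 lower in BPVB, beside 45.6% of all genes tested (25.2% higher and 20.5% lower).

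Rises and falls were also counted by abundance, with no test of the difference between levels. Among the 22 members that averaged 10 FPKM or more, 5 rose and 13 fell, and their median log2 fold change was -0.14. Of all genes at that level, 45.0% changed, 22.2% rising and 22.8% falling. Among the 15 members between 1 and 10 FPKM, 7 rose and 2 fell, where 15.7% of all such genes rose and 10.2% fell. Of the 6 members between 0.1 and 1 FPKM, 3 rose and none fell, where 10.5% of all such genes rose and 5.95% fell. Lama1, the laminin α chain of the early embryo, was the member below the filter, with 16, 1 and 1 fragments in BPVB 1 to 3 and 0, 0 and 5 in sham 1 to 3, and it was not tested.

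**Figure D1:**
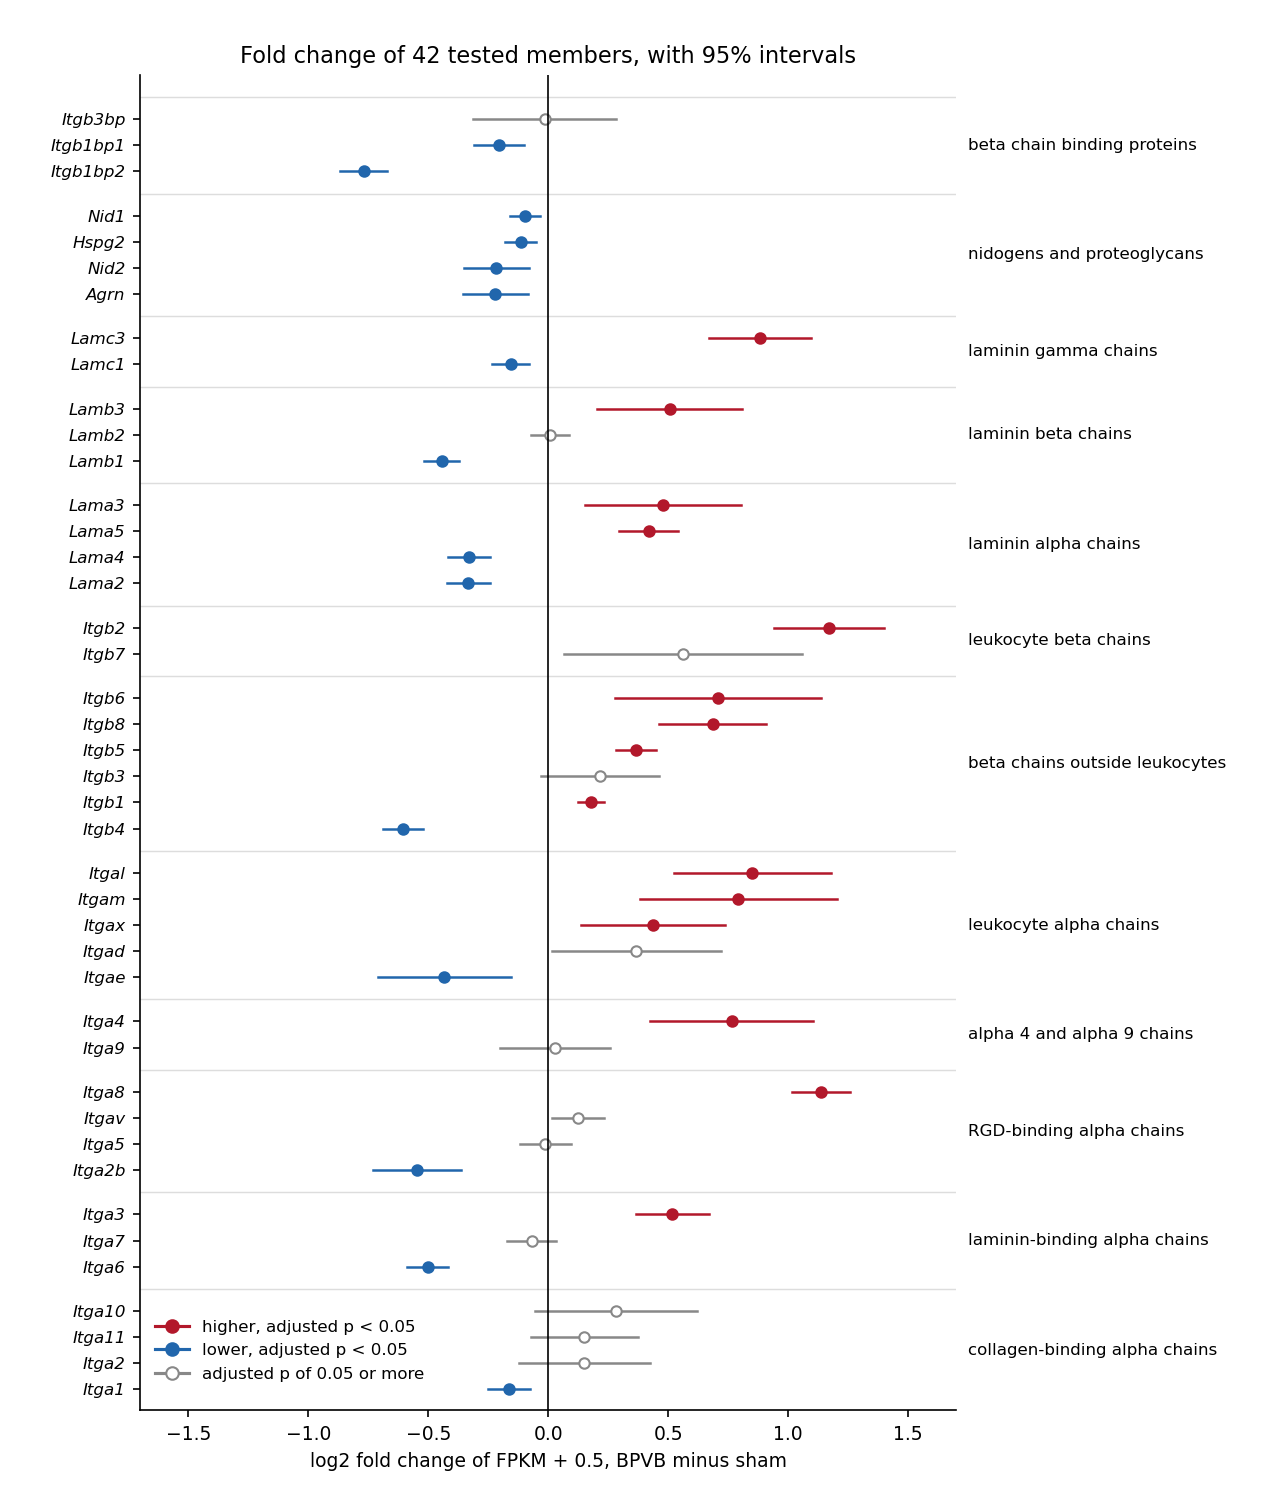
Log2 fold change (BPVB minus sham, FPKM + 0.5) of 42 of the tested members, grouped by role. Points are limma estimates and bars their 95% intervals, which are not adjusted for the number of genes, filled red for 15 that rose, filled blue for 15 that fell and open for 12 with an adjusted p of 0.05 or more; Itga8 and Itgb2 lie furthest to the right and Itgb1bp2 furthest to the left.

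Among the integrin α chains that bind the RGD motif of fibronectin and related ligands, 1 of 4 rose, 1 fell and 2 did not pass the test. Of all genes tested, 17.2% rose and 14.3% fell. Itga8, which pairs with β1, binds fibronectin, vitronectin and nephronectin and is typical of smooth muscle cells and fibroblasts, was at 40.8, 43.4 and 39.3 FPKM in BPVB 1 to 3 and at 19.3, 18.0 and 17.9 FPKM in sham 1 to 3. Every BPVB library was far above every sham library, and the spread within either group was small beside the gap. Mean levels were 41.2 ± 2.07 and 18.4 ± 0.774 FPKM (SD, n = 3 each), a ratio of 2.23, with a log2 fold change of 1.14 (SE 0.053, adjusted p = 9.84e-07). Per length, Itga8 was the most abundant α chain in BPVB, with 17.3% of the summed α chain FPKM, and the fifth in sham, with 8.18%. By fragments, which weigh long genes more, Itga1 stayed ahead of it in BPVB, with 27.7% of α chain fragments against 15.7%. Of the smooth muscle markers 4 of 4 fell, with a summed level of 3796 to 3843 FPKM in BPVB and 4129 to 4209 in sham, and of 4 fibroblast markers 2 rose and 2 fell. The part of these cell types in the rise of Itga8 was not tested, nor was that of lung tissue, whose markers are given with the laminins.

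Itga2b, the platelet and megakaryocyte chain that pairs with β3 to bind fibrinogen, was at 5.18, 4.88 and 4.65 FPKM in BPVB and at 7.85, 7.09 and 7.22 FPKM in sham. It was lower in every BPVB library, with a ratio of 0.664 and a log2 fold change of -0.55 (SE 0.081, adjusted p = 0.000971). Of 5 platelet markers, 0 passed the limma test (1, Gp1ba, at an unadjusted p under 0.05, and 0 by limma-voom on recovered fragments). Their summed level, nearly all of it Pf4 (ratio 1.00), was 209 to 223 FPKM in BPVB and 208 to 227 in sham. The scarcer markers had lower means in BPVB, with overlapping groups. Their ratios were 0.580 for Gp1ba, 0.829 for Ppbp, 0.897 for Gp9 and 0.895 for Gp6. The part of platelets in the fall of Itga2b was not tested. Itga5, the fibronectin receptor chain and the most abundant RGD-binding chain over all 6 libraries, was at 34.6, 34.5 and 37.5 FPKM in BPVB and 34.9, 36.4 and 36.2 FPKM in sham. Its groups overlapped, and the 95% interval of its log2 fold change ran from -0.12 to 0.09. Itgav, which pairs with several β chains and takes part in the activation of latent TGF-β, was at 17.7 to 18.4 FPKM in BPVB and 16.4 to 16.7 in sham, groups that did not overlap but with an adjusted p of 0.0773.

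The α chains that bind laminin went different ways, with 1 rise, 1 fall and 1 that did not pass. Counts this small stand beside 17.2% of all genes tested that rose and 14.3% that fell. Itga6, found on endothelium, Schwann cells and the base of epithelia, was at 26.7, 27.0 and 26.5 FPKM in BPVB and 37.9, 37.8 and 38.6 FPKM in sham. The libraries of each group lay within about 1 FPKM of each other and the groups were well apart. The ratio was 0.702 and the log2 fold change -0.50 (SE 0.038, adjusted p = 1.8e-05), and per length Itga6 went from the second most abundant α chain in sham to the fifth in BPVB, while its share of α chain fragments, not per length, was 18.4% in sham and 12.6% in BPVB, where only Itga1 and Itga8 had more. Itga3, a receptor for the laminins that hold the α3 or α5 chain, was at 14.6, 15.3 and 13.9 FPKM in BPVB and 9.37, 10.4 and 10.4 FPKM in sham. It was higher in every BPVB library (ratio 1.45, log2 fold change 0.52, SE 0.067, adjusted p = 0.000434). Itga7, the laminin receptor chain of muscle, was at 34.1, 34.4 and 35.4 FPKM in BPVB and 35.4, 38.2 and 35.5 FPKM in sham, with a 95% interval of the log2 fold change from -0.17 to 0.03.

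Itgb4, the partner that joins α6 alone and anchors cells to laminin through intermediate filaments, fell alongside Itga6. It stood at 30.9, 31.9 and 31.6 FPKM in BPVB and 47.5, 48.6 and 48.3 FPKM in sham, without any overlap. Mean levels were 31.5 ± 0.546 and 48.1 ± 0.581 FPKM (SD, n = 3 each), a ratio of 0.654, with a log2 fold change of -0.61 (SE 0.037, adjusted p = 4.42e-06). Schwann cells, endothelium and epithelia are known to carry this pair. All 4 Schwann cell markers fell, and 4 of 6 endothelial markers fell, the latter with sums of 952 to 969 FPKM in BPVB and 1081 to 1090 in sham. Epithelial markers went the other way, 4 of 5 rising, with sums of 13.8 to 16.9 FPKM in BPVB and 4.26 to 5.01 in sham. The part of these cell types in the fall of Itga6 and Itgb4 was not tested. In whole tissue, fewer cells of a type and less RNA per cell cannot be told apart, and the same holds for every gene described here.

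Of the 6 β chains outside leukocytes, 4 rose, 1 (Itgb4) fell and 1 did not pass the test. These counts stand beside 17.2% of all genes tested that rose and 14.3% that fell. Itgb1, the common partner of most α chains, was by far the most abundant integrin chain per length, at 352, 347 and 346 FPKM in BPVB and 312, 308 and 304 FPKM in sham. All BPVB values were higher, but the rise was small (ratio 1.13, log2 fold change 0.18, SE 0.023, adjusted p = 0.000452). Itgb5 and Itgb8 pair with αv, and the latter presents latent TGF-β for activation. Itgb5 was at 50.7, 49.3 and 49.4 FPKM in BPVB and 39.4, 37.8 and 38.5 FPKM in sham (ratio 1.29, log2 fold change 0.36, SE 0.037, adjusted p = 9.85e-05). Itgb8 was at 4.28, 4.72 and 5.18 FPKM in BPVB and 2.73, 2.78 and 2.72 FPKM in sham (ratio 1.72, log2 fold change 0.69, SE 0.098, adjusted p = 0.000815). Neither gene's groups overlapped, and per length Itgb5 took the place of Itgb4 as the second most abundant β chain, while by fragments Itgb4 stayed ahead of Itgb5 in BPVB (10.9% and 10.1% of β chain fragments).

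Itgb6, the epithelial partner of αv, was scarce in both groups, at 0.377, 0.825 and 0.487 FPKM in BPVB and 0.237, 0.103 and 0.0928 FPKM in sham. These values stand on 11 to 107 fragments per library, with BPVB 2 the highest and no overlap. Its ratio was 3.90 and its log2 fold change 0.71 (SE 0.189, adjusted p = 0.0202), and the call was lost without BPVB 2, sham 2 or sham 3 (adjusted p = 0.0611, 0.0627 and 0.0658). Itgb3, the partner of αv and αIIb, lay between 6.15 and 6.67 FPKM in BPVB and between 4.60 and 6.22 FPKM in sham, groups that overlapped (adjusted p = 0.166).

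**Figure D2:**
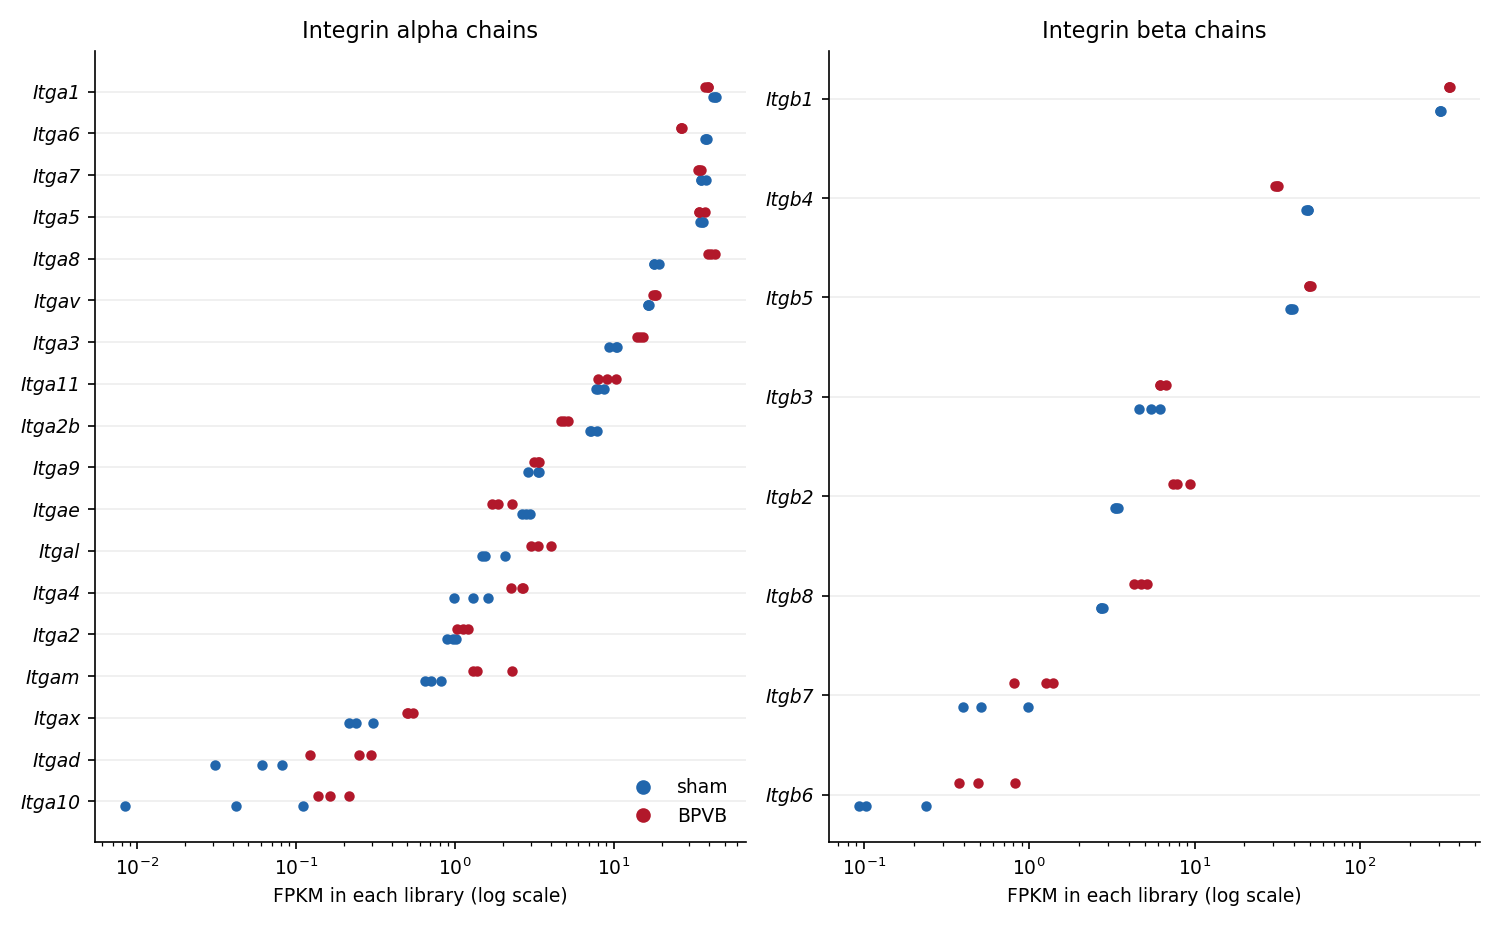
FPKM of each integrin α chain (left) and β chain (right) on log axes, with each sham library as a blue point and each BPVB library as a red point, and chains ordered by their level in sham. Itgb1 lies far above the other chains in both groups, and Itga8 moved from a mean of 18.4 FPKM in sham to 41.2 FPKM in BPVB.

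Of the collagen receptors, 1 of 4 fell and the others did not pass the test, beside 14.3% of all genes tested that fell. Itga1, the most abundant of the 4 collagen-binding α chains and one found on smooth muscle, was at 39.2, 39.0 and 37.7 FPKM in BPVB and 44.2, 42.3 and 43.7 FPKM in sham. It was lower in every BPVB library (ratio 0.891, log2 fold change -0.16, SE 0.038, adjusted p = 0.0109). Itga11, a collagen receptor of fibroblasts, was at 7.95 to 10.3 FPKM in BPVB and 7.72 to 8.72 in sham, with overlap (adjusted p = 0.279). Itga2 and Itga10 were higher in every BPVB library than in any sham library but did not pass either, with adjusted p of 0.385 and 0.186. Itga10 stood on 1 to 32 fragments per library, with a plain ratio of 3.21 (2.26 without sham 1 and 6.86 without sham 2). Limma-voom on recovered fragments gave it an adjusted p of 0.0475.

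Summed over all chains, integrin β FPKM was 451 ± 2.74 in BPVB and 407 ± 4.87 in sham (SD, n = 3 each), a ratio of 1.11, and the α chains summed to 238 ± 3.48 and 225 ± 1.07 FPKM, a ratio of 1.06. For each sum the groups did not overlap, and the two-sided exact permutation p was 0.1, the smallest that 3 libraries against 3 allow. Itga8 alone rose from a mean of 18.4 FPKM in sham to 41.2 in BPVB, by more than the α sum. The mean sum of the other α chains was thus lower in BPVB.

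Of the 5 α and 2 β integrin chains of leukocytes tested, 3 α chains and 1 β chain rose, 1 α chain fell, and the others did not pass, beside 17.2% of all genes tested that rose and 14.3% that fell. Itgb2, the common β chain of the leukocyte integrins, was at 7.43, 9.42 and 7.80 FPKM in BPVB and 3.34, 3.45 and 3.28 FPKM in sham. Each BPVB library was above every sham library, and the sham values were nearly equal. The ratio was 2.45 and the log2 fold change 1.17 (SE 0.101, adjusted p = 3.87e-05), the largest among the members on this scale, although the plain ratios of the scarce Itgb6, Itgad and Itga10 were larger among tested members. Of the α chains that pair with it, Itgal (CD11a, on most leukocytes) was at 3.03, 4.03 and 3.32 FPKM in BPVB and 1.49, 2.07 and 1.54 FPKM in sham. It rose with a ratio of 2.04 (log2 fold change 0.85, SE 0.144, adjusted p = 0.00209).

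Itgam (CD11b, of macrophages and neutrophils) was at 2.28, 1.38 and 1.303 FPKM in BPVB and 0.645, 0.702 and 0.819 FPKM in sham, with BPVB 1 well above the others but no overlap. Its ratio was 2.29 (log2 fold change 0.79, SE 0.180, adjusted p = 0.00973). Itgax (CD11c, of dendritic cells and alveolar macrophages) was at 0.5004, 0.509 and 0.544 FPKM in BPVB and 0.303, 0.239 and 0.216 FPKM in sham. The ratio was 2.05 (log2 fold change 0.44, SE 0.132, adjusted p = 0.0343), but the call was lost with any of the 6 libraries left out (adjusted p from 0.0506 to 0.0964). Itgad (CD11d) stood on 3 to 33 fragments per library, with a plain ratio of 3.88, and did not pass (adjusted p = 0.106), although its groups did not overlap.

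Itga4, which pairs with β1 or β7 and binds VCAM1 and fibronectin, was at 2.70, 2.64 and 2.26 FPKM in BPVB and 0.992, 1.61 and 1.303 FPKM in sham. All BPVB libraries were higher (ratio 1.95, log2 fold change 0.76, SE 0.149, adjusted p = 0.00444). Itga9, its nearest relative, was at 3.13, 3.37 and 3.31 FPKM in BPVB and 3.37, 3.36 and 2.88 FPKM in sham, with overlap (adjusted p = 0.862). Itgae (CD103, the E-cadherin receptor chain of lymphocytes in epithelia) went the other way, from 2.66 to 2.95 FPKM in sham to 1.71 to 2.30 FPKM in BPVB (ratio 0.698, log2 fold change -0.43, SE 0.122, adjusted p = 0.0251). Its call was lost without BPVB 1, BPVB 3, sham 2 or sham 3 (adjusted p from 0.064 to 0.0803). Itgb7, its β chain, was at 1.38, 1.26 and 0.806 FPKM in BPVB and 0.982, 0.511 and 0.397 FPKM in sham. BPVB 3 lay below sham 1, and the adjusted p was 0.0831, or 0.0242 without sham 1.

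Macrophage markers rose with these chains, 7 of 7, with a summed level of 676 to 697 FPKM in BPVB and 224 to 234 in sham. Most of that sum was Lyz2 (means of 592 and 163 FPKM), and the other 6 markers summed to 93.5 to 101.5 FPKM in BPVB and 63.6 to 67.6 in sham, a ratio of 1.48. Of 4 neutrophil markers 2 fell and none rose, with sums of 6.04 to 10.0 FPKM in BPVB and 18.0 to 20.3 in sham. Most of these sums was S100a8 and S100a9, which fell. Csf3r (ratio 1.57, adjusted p = 0.127) and Cxcr2 (ratio 0.662, adjusted p = 0.484) did not pass the limma test. Of 4 T and natural killer cell markers, 0 passed the limma test (1 at an unadjusted p under 0.05), and of 3 B cell markers 0 passed (0 at an unadjusted p under 0.05), as by limma-voom on recovered fragments. The part of leukocyte number in the rise of the leukocyte chains was not tested.

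**Figure D3:**
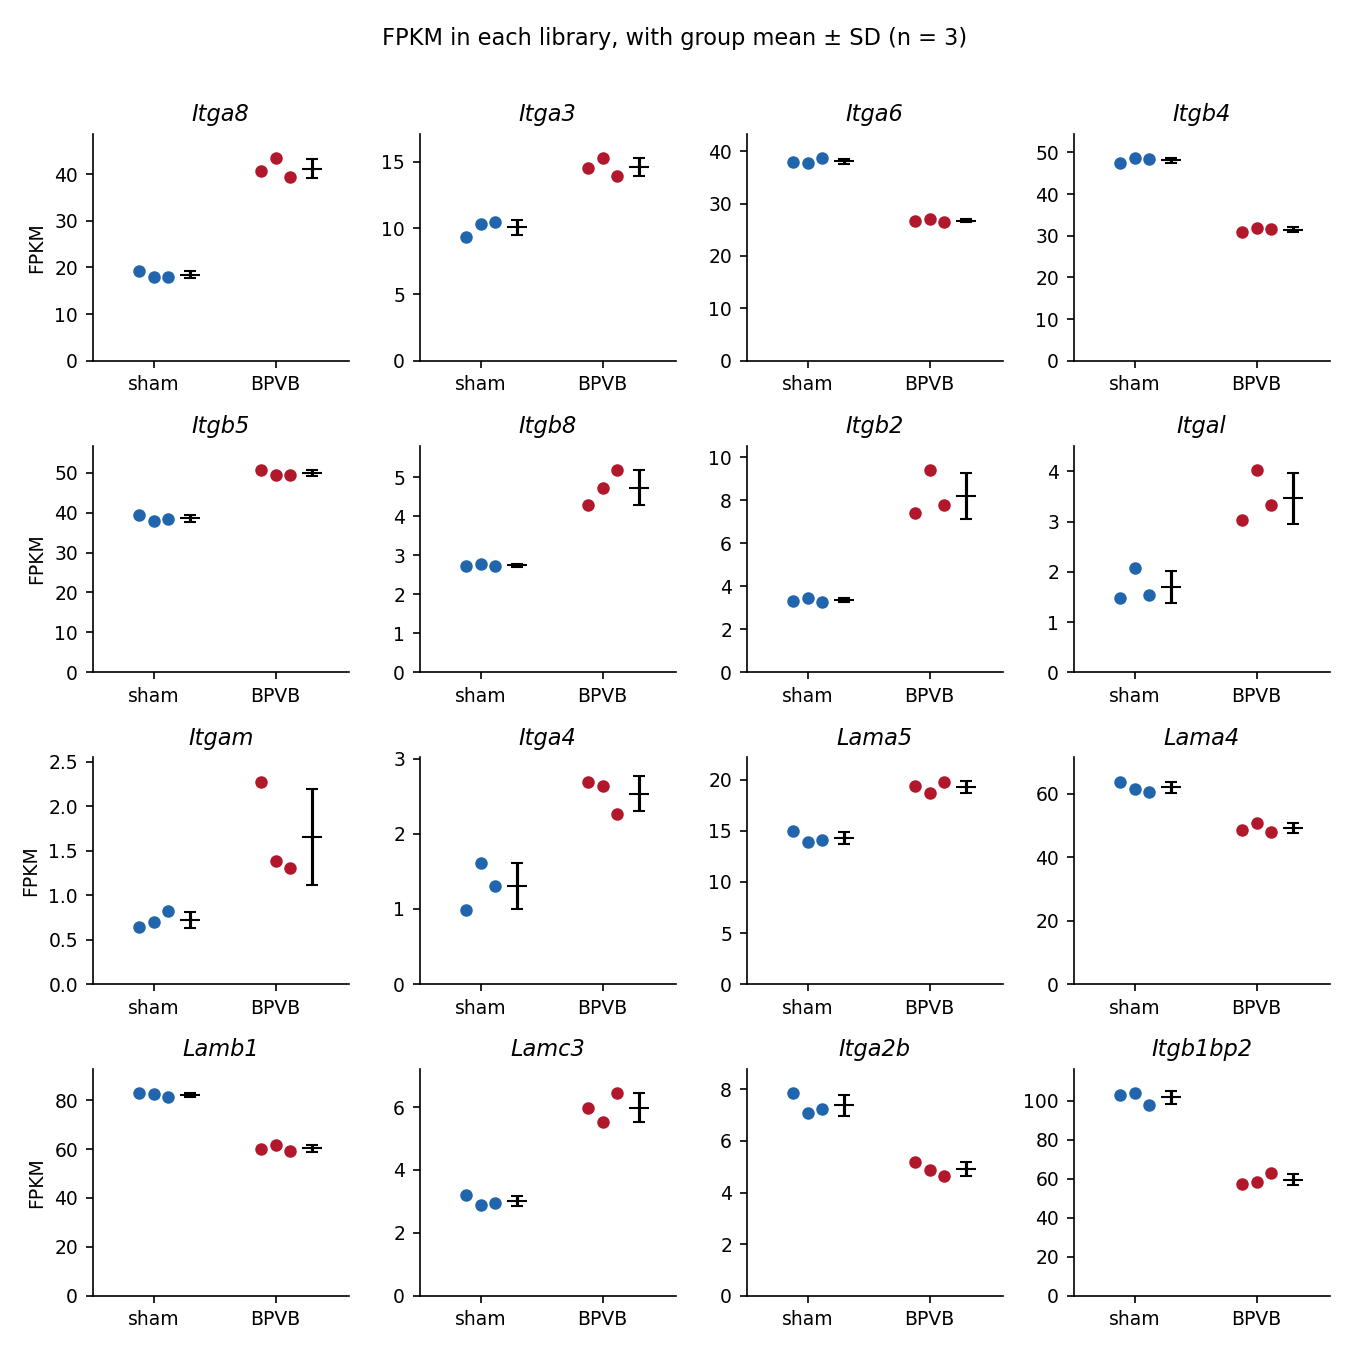
FPKM of 16 members in each sham (blue) and BPVB (red) library, with the group mean ± SD (n = 3) in black and each vertical axis starting at 0. The groups do not overlap in any of the 16 panels, and BPVB 1 stands above the other BPVB libraries for Itgam.

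Promoter sequences are shown for Itga8, the member with the lowest adjusted p, and for Itgam and Itgax, neighbouring genes that rose together. Each is the sequence around an annotated start, and its part in the rise was not tested. Of the 44 members, 34 had an entry in the RefSeq promoter table (assembly GRCr8), which gives 250 bases before and 50 bases after each start, read on the gene's strand. The windows are chr17:80410584-80410883 (minus strand) for Itga8, chr1:192089342-192089641 (plus strand) for Itgam and chr1:192149799-192150098 (plus strand) for Itgax. Capitals mark GAGGAA, the core bound by the myeloid factor PU.1, and GGGCGG, the GC box, in either orientation.
Itga8: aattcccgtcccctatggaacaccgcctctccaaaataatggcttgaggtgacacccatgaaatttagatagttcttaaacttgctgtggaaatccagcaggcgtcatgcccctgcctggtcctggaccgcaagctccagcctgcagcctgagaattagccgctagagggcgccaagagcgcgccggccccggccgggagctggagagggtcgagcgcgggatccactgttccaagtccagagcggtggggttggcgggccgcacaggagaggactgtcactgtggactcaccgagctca
Itgam: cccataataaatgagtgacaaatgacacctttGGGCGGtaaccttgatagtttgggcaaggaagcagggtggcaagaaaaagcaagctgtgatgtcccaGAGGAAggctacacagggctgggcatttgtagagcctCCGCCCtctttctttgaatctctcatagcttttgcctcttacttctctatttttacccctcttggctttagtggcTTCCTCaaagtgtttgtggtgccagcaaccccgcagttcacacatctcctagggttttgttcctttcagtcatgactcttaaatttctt
Itgax: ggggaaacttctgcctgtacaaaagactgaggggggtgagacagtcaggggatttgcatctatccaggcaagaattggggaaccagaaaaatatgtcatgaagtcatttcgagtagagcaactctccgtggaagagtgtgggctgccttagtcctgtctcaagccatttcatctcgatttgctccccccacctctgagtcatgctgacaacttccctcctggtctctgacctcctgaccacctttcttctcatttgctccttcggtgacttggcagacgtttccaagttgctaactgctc
The Itgam window held 2 matches of each motif, with no overlap between them, and the Itga8 and Itgax windows held none of either. GAGGAA was in 27.6% of all 33469 promoter windows and in 14 of the 34 members' windows, and GGGCGG was in 33.1% of all windows and in 17 of the 34. The TATA box, TATAAA, was in 14.2% of all windows and in 2 of the 34. A match in a window is a run of letters and was not tested as a binding site.

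Laminin chains changed in both directions. Of the 10 tested, 4 rose, 4 fell and 2 did not pass, and their median log2 fold change was -0.04. The shares of all genes tested were 17.2% rising and 14.3% falling. Among the α chains, which decide which receptors a laminin binds, Lama4, the chain of endothelium and muscle, was the most abundant, at 48.6, 50.9 and 48.0 FPKM in BPVB and 63.8, 61.5 and 60.6 FPKM in sham. It fell in every BPVB library below every sham library (ratio 0.793, log2 fold change -0.33, SE 0.039, adjusted p = 0.000251). Lama2, the chain of muscle and Schwann cell membranes, was at 26.6, 25.8 and 26.6 FPKM in BPVB and 33.5, 33.6 and 32.7 FPKM in sham, and fell by the same factor (ratio 0.791, adjusted p = 0.000287).

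Lama5, found below mature endothelium and below epithelia, moved against them, at 19.4, 18.7 and 19.8 FPKM in BPVB and 15.0, 13.9 and 14.1 FPKM in sham. Its groups did not overlap (ratio 1.35, log2 fold change 0.42, SE 0.054, adjusted p = 0.00042). Lama5 made up 20.29%, 19.41% and 20.81% of summed laminin α FPKM in BPVB 1 to 3 and 13.26%, 12.69% and 13.09% in sham 1 to 3. This share was 20.2% ± 0.71 and 13.0% ± 0.29 (SD, n = 3 each), a difference of 7.16 percentage points, while that of Lama4 went from 56.3% in sham to 51.3% in BPVB and that of Lama2 from 30.2% to 27.5%. For each of these shares the groups did not overlap, with a two-sided exact permutation p of 0.1. Lama3, an epithelial chain, was at 0.816, 1.06 and 0.896 FPKM in BPVB and 0.580, 0.402 and 0.588 FPKM in sham (ratio 1.77, log2 fold change 0.48, SE 0.143, adjusted p = 0.0322). That call was lost without any 1 library other than BPVB 1 (adjusted p from 0.0519 to 0.104).

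Of the β chains, Lamb1, the more widespread early chain, fell the most of all laminin chains. It was at 60.1, 61.8 and 59.1 FPKM in BPVB and 82.9, 82.5 and 81.3 FPKM in sham, with the groups well apart (ratio 0.734, log2 fold change -0.44, SE 0.032, adjusted p = 1.49e-05). Lamb2, which takes over from Lamb1 in mature vessels and muscle, was at 120, 119 and 116 FPKM in BPVB and 115, 123 and 116 FPKM in sham, with overlap and a 95% interval of the log2 fold change from -0.07 to 0.09. The share of Lamb2 in summed laminin β FPKM was 65.5% ± 0.542 in BPVB and 58.5% ± 0.885 in sham (SD, n = 3 each), and that of Lamb1 was 33.4% and 40.8%, again without overlap (exact permutation p = 0.1 each). Lamb3, an epithelial chain, was at 1.78, 2.15 and 2.29 FPKM in BPVB and 1.19, 1.23 and 1.52 FPKM in sham, and was higher in every BPVB library (ratio 1.58, log2 fold change 0.51, SE 0.133, adjusted p = 0.0187). Without BPVB 2, BPVB 3, sham 1 or sham 2 its adjusted p was 0.0576 to 0.0652.

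Among the γ chains, Lamc1, part of most laminins, was at 97.9, 93.6 and 98.8 FPKM in BPVB and 109, 109 and 106 FPKM in sham (ratio 0.896, log2 fold change -0.16, SE 0.033, adjusted p = 0.00677). Lamc3 had the largest rise of any laminin chain, at 5.97, 5.54 and 6.44 FPKM in BPVB and 3.20, 2.89 and 2.95 FPKM in sham. The lowest BPVB value was well above the highest sham value (ratio 1.99, log2 fold change 0.88, SE 0.093, adjusted p = 0.000132).

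**Figure D4:**
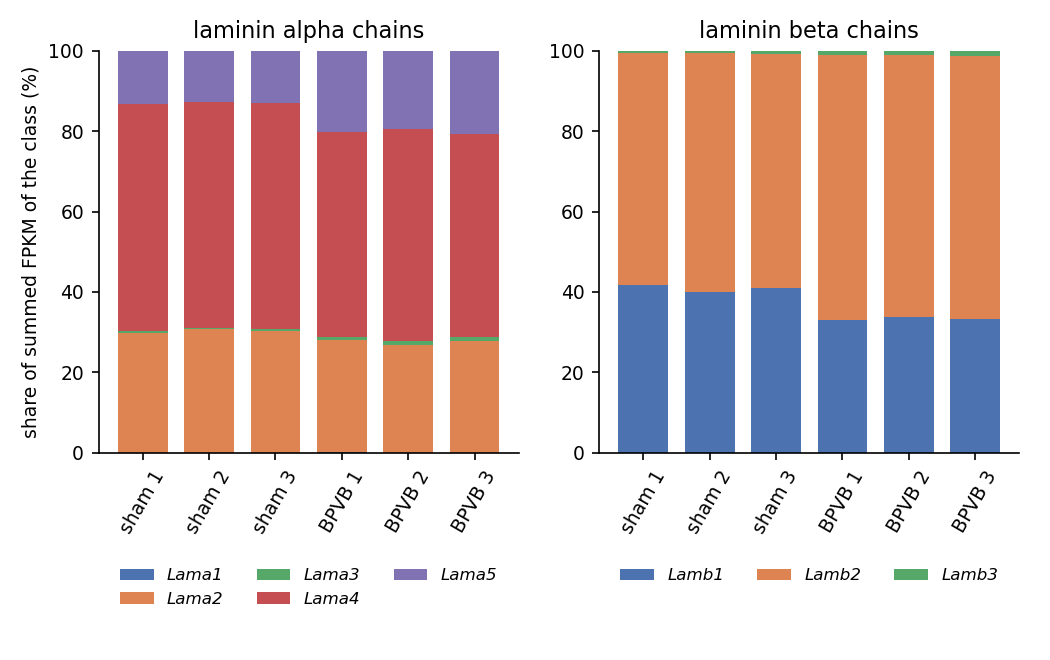
Share of each chain in the summed FPKM of laminin α and β chains in each of the 6 libraries, in percent. Lama5 and Lamb2 take a larger share in all 3 BPVB libraries than in any sham library, and Lama4, Lama2 and Lamb1 a smaller one.

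The laminin α and β sums were lower in BPVB. The α chains summed to 95.7 ± 0.652 FPKM in BPVB and 110 ± 2.51 in sham, and the β chains to 181 ± 2.60 and 201 ± 4.53 (SD, n = 3 each), with ratios of 0.870 and 0.898 and an exact permutation p of 0.1 for each. Epithelial cells are a known source of Lama3, Lamb3, Lama5, Itga3 and Itgb6, which rose, and of Itga6 and Itgb4, which fell. Of their markers, 5 of 5 alveolar type 2 markers rose (sum 509 to 560 FPKM in BPVB and 51.1 to 53.6 in sham). Of alveolar type 1 markers 4 of 5 rose and 1 fell (136 to 147 and 83.0 to 86.9), and 4 of 5 general epithelial markers rose. Hopx, the alveolar type 1 marker that fell, held most of that cell type's sum in sham (mean 70.9 FPKM, and 59.3 in BPVB). The ratios of the others were 6.10 for Ager, 8.94 for Rtkn2, 8.60 for Aqp5 and 4.58 for Pdpn. The part of epithelial or lung tissue in the changes of these chains was not tested.

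The nidogens and proteoglycans all fell, 4 of 4, by small amounts. Of all genes tested 14.3% fell, and of those that averaged 10 FPKM or more, 22.8%. Nid1, the most abundant, was at 124, 122 and 121 FPKM in BPVB and 131, 132 and 130 FPKM in sham, groups close together but without overlap (ratio 0.935, log2 fold change -0.10, SE 0.027, adjusted p = 0.0229). Hspg2 (perlecan) had a ratio of 0.923 (adjusted p = 0.0146), Nid2 of 0.859 (adjusted p = 0.0229) and Agrn of 0.856 (adjusted p = 0.0212). The calls of Nid1, Nid2 and Agrn did not survive the loss of some single libraries. Nid1 had an adjusted p of 0.0555 to 0.0704 without any 1 library other than BPVB 1, Nid2 of 0.0677 to 0.0752 without BPVB 2, BPVB 3, sham 1 or sham 2, and Agrn of 0.0605 to 0.0681 without BPVB 1, BPVB 2, sham 2 or sham 3.

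Of the proteins named for binding an integrin β chain, Itgb1bp2 (melusin, a protein of striated muscle) had the largest fall of all members. It was at 57.4, 58.2 and 62.8 FPKM in BPVB and 103, 104 and 98.0 FPKM in sham, with the groups far apart (ratio 0.585, log2 fold change -0.77, SE 0.043, adjusted p = 2.71e-06). Of 5 cardiomyocyte markers 3 fell and 2 rose, and their summed level was 8762 to 9110 FPKM in BPVB and 12383 to 12662 in sham, a ratio of 0.72. The part of cardiac muscle in the fall of Itgb1bp2 was not tested. Itgb1bp1 (ICAP1, which binds the β1 tail) fell from 23.4 to 24.3 FPKM in sham to 20.0 to 21.0 FPKM in BPVB (ratio 0.866, adjusted p = 0.00917). Itgb3bp, a centromere protein as well, was at 2.21 to 2.63 FPKM in BPVB and 2.24 to 3.00 in sham, with overlap (adjusted p = 0.944).

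Genes that work with the members were read from 4 lists, whose counts stand beside 17.2% of all genes tested that rose and 14.3% that fell. Of 25 other integrin ligands tested, 16 rose, 5 fell and 4 did not pass, with a median log2 fold change of 0.31 beside 0.02 over all genes tested. Spp1 (osteopontin, a ligand of α8, αv and α4 integrins) was at 22.0, 20.6 and 18.3 FPKM in BPVB and 2.54, 3.35 and 2.75 FPKM in sham (log2 fold change 2.62, SE 0.107, adjusted p = 4.84e-07). Cdh1 (E-cadherin, the ligand of CD103) was at 1.93, 2.56 and 2.77 FPKM in BPVB and 0.440, 0.475 and 0.477 FPKM in sham (log2 fold change 1.59, SE 0.143, adjusted p = 5.3e-05). Vtn (vitronectin) was at 13.7, 16.5 and 12.1 FPKM in BPVB and 39.7, 37.3 and 37.6 FPKM in sham (log2 fold change -1.42, SE 0.096, adjusted p = 9.04e-06). Ligands moved both ways, with no overlap of groups for any of the 3 genes.

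Of 21 other basement membrane genes, 8 rose, 6 fell and 7 did not pass, with a median log2 fold change of 0.05. Smoc2, a calcium-binding protein of the matrix, was at 5.65, 6.58 and 6.27 FPKM in BPVB and 16.8, 16.0 and 16.7 FPKM in sham (log2 fold change -1.35, SE 0.071, adjusted p = 1.83e-06). Its relative Smoc1 did the opposite, at 32.6, 31.4 and 34.0 FPKM in BPVB and 16.1, 15.1 and 15.9 FPKM in sham (log2 fold change 1.04, SE 0.051, adjusted p = 1.34e-06). Col18a1, the source of endostatin, was at 78.8, 78.2 and 77.5 FPKM in BPVB and 38.4, 41.9 and 40.4 FPKM in sham (log2 fold change 0.95, SE 0.040, adjusted p = 5.67e-07).

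Of 20 other matrix receptors and integrin partners, 7 rose and 8 fell, and Sdc4 (syndecan 4, a fibronectin co-receptor) had the largest change, at 10.7, 10.4 and 11.1 FPKM in BPVB and 6.24, 6.42 and 5.92 FPKM in sham (log2 fold change 0.75, adjusted p = 5.32e-05). Sgca and Sgcb, sarcoglycans of the muscle laminin receptor complex, fell, with log2 fold changes of -0.55 and -0.45 (adjusted p = 0.000117 and 9.32e-05). Of 23 cytoplasmic adhesion proteins tested, which join integrins to actin, 4 rose, a share near that of all genes tested, 9 fell and 10 did not pass. Tns3 (tensin 3) rose from 11.7, 13.4 and 11.8 FPKM in sham to 20.2, 19.2 and 19.3 FPKM in BPVB (log2 fold change 0.66, adjusted p = 9.58e-05). Pxn (paxillin) and Tln2 (talin 2) fell, with log2 fold changes of -0.53 and -0.52 (adjusted p = 2.19e-05 and 0.000452).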

How the data were processed

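Pulmonary vein RNA of 6 rats (3 BPVB, 3 sham) was sequenced as paired reads of 150 bases. The deposited table holds 1 FPKM value per gene and library, which the authors made from mapped fragments divided by gene length and library total. The paper's methods name fastp, HISAT and HTSeq-count, while the submitters' processing notes list HISAT2 2.0.5, StringTie 1.3.3b, featureCounts 1.5.0-p3 and DESeq2 1.20.0, and the library kit also differs between the paper and the labels. The genome build is not given in the sources used here, and whether counting used strand is not stated, so overlapping or antisense genes are not separated. Columns were matched to rats by the group's initial and the replicate number in the sample titles, and the number of sample columns not used was 0.

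A linear model per gene (limma 3.58.1 under R 4.3.3, trended eBayes) was fitted to log2(FPKM + 0.5) of the 15150 genes that averaged 0.1 FPKM or more. Tests were two-sided, and p-values were adjusted by Benjamini-Hochberg across these genes. Tested on simulated data of this size (15167 genes), the procedure called 184 of 200 genes changed 4-fold, 5 unchanged genes and none with the wrong sign. Smaller changes, such as those of most members, were not simulated. Fragment numbers were worked back from ratios of FPKM between libraries, which are ratios of whole numbers, for 99.99% of genes, taking a gene length as whole within 0.0001 bases. In simulated tables all 6 fragment numbers were right for 97.7% of genes. Fragments may share an original molecule, since no molecular identifiers are named. Chain shares and sums were compared by exact permutation tests over libraries. Python 3.11.15 with numpy 2.4.6, pandas 2.3.3 and scipy 1.17.1 was used for the other steps. The same-numbered rats of the groups did not deviate together (correlations 0.014 to 0.025), so no pairing was used.

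The members, the 4 companion lists and the 20 lists of cell type markers were chosen with earlier results of these data known. All members are in the counts, and the values of 1 of them are not reported here. Values in every library are given for members that changed with an absolute log2 fold change of at least 0.5, for the most abundant member of each role and for the laminin chains reported. Of each companion list, the 3 genes with the largest change among those that changed and had a mean of at least 1 FPKM are named. Alternatives were pseudocounts of 0.1 and 1, a minimum mean of 1 FPKM or none, median-of-ratios and quantile scaling, a replicate block, robust eBayes, limma-voom on recovered fragments, and each library left out. The macrophage sum without its most abundant marker and the plain ratios of scarce members with a library left out were added after seeing the data.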

Additional observations from a re-analysis of the deposited data

How the results depend on the processing

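Under 15 alternatives, 22 of the 30 members that changed kept an adjusted p under 0.05 in all that tested them (a minimum mean of 1 FPKM leaves out the scarcest), 8 lost it in at least 1, and none of the 30 changed direction. The number of members that changed was 22 to 27 with a library left out and 26 to 33 under the other alternatives. Agrn, Itgae, Itgb6 and Nid2 lost the call only with a library left out. Quantile scaling gave an adjusted p of 0.0714 for Itgax, 0.0826 for Lama3, 0.0503 for Lamb3 and 0.088 for Nid1. With a replicate block, although the numbers do not pair the rats, 29 members changed, Itgax and Lama3 lost the call (adjusted p = 0.0694 and 0.0654) and Itgb7 gained it (0.0311). The count with both thresholds passed was 7 under limma-voom on recovered fragments, which also differs in filter and weighting (Itga10, Itgal, Itgam, Itgax and Itgb6 besides Itga8 and Itgb2), and 4 with a pseudocount of 0.1 (Itgam and Itgb6 besides). Limma-voom also gave an adjusted p of 0.0475 for Itga10, 0.0232 for Itgav and 0.0469 for Itgb7, and Itgad reached 0.0418 with no filter.

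Measured in fragments instead of FPKM, so that long genes weigh more, the differences in laminin shares were -4.74 percentage points for Lama2, 1.04 for Lama3, 9.07 for Lama5 and 0.36 for Lamb3, in the same directions. Members near 0 changed sign: Itga5 (0.0071 and 0.0089 without BPVB 1 and BPVB 2, with -0.0509 the lowest with a library left out), Itga9 (-0.0470 with quantile scaling and -0.0362 to 0.0609 with a library left out, lowest without sham 3), Itgb3bp (0.04 without BPVB 3, -0.0749 to 0.10 with a library left out, highest without sham 1) and Lamb2 (-0.0186 with median-of-ratios scaling, -0.0040, -0.0108 and -0.0042 without BPVB 1, sham 1 and sham 3, and up to 0.0380 without sham 2). The causes were not tested. With 3 rats a group and levels under 1 FPKM, changes of Itga10, Itgad, Itgb6 and Lama1 are poorly resolved at this depth.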

Other observations

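Itgbl1, an integrin β-like secreted protein whose symbol falls just outside the rule for members, was chosen after its values were seen. It was at 61.7, 64.0 and 61.3 FPKM in BPVB and 34.1, 36.5 and 33.5 FPKM in sham, with no overlap. The ratio was 1.80 and the log2 fold change 0.84 (SE 0.044, limma). On the log2(FPKM + 0.5) scale this was larger than that of all but 4 members, namely Itgb2, Itga8, Lamc3 and Itgal. By plain ratio other scarcer members, such as Itgam (2.29) and Itga4 (1.95), also stood above it.

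By the KEGG pathway names in the deposited annotation, read after values were seen, 20 of 47 tested genes of ECM-receptor interaction that are not members rose and 6 fell, and 44 of 160 such genes of focal adhesion rose and 28 fell, beside 17.2% of all genes tested that rose and 14.3% that fell. Among marker lists not described with a member, 3 of 3 adipocyte markers rose (sum 26.1 to 28.3 FPKM in BPVB and 6.95 to 10.6 in sham), 1 of 2 airway and 1 of 2 dendritic cell markers rose, and 1 of 3 skeletal muscle markers rose and 1 fell. In the other direction, 3 of 4 autonomic neuron, 2 of 3 mesothelial and 1 of 3 pericyte markers fell. The table lists no gene at 0 in every library, and 2 of the markers chosen, Gp1bb of platelets and Myh4 of skeletal muscle, were not listed in it.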
